A study of Aspergillus nidulans with 6 samples.

Results

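The genes described here are 4 light-regulated genes of *Aspergillus nidulans* with a binding region of the transcription factor AtfA beside them, namely *nopA* (AN3361), *cryA* (AN0387), AN0604 and AN5401. AtfA binding was mapped by ChIP-seq in conidia, the asexual spores, and each of 6 libraries has its own list of peaks. Overlapping peaks of the 6 lists were merged, and the members are 4 of the 707 merged regions, with 14 of the 2723 peaks. They were chosen by the presence of AtfA peaks over these 4 intervals, read from the same lists, so presence, score, width and summit are given here as descriptions. These 4 are among the 502 genes of the study's curated list of genes with peaks.

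There were 3 conditions with 2 replicates each, called MSB Tr. (3 d), Untr. (3 d) and Untr. (2 d). The first held conidia of 3 d cultures treated with 0.04 mM menadione sodium bisulfite (MSB), which raises superoxide inside the cell, and the others held untreated conidia of 3 d and 2 d cultures. All libraries came from surface cultures on NMM agar plates of one strain, *atfA*::3XFLAG, which is *veA*+ and carries the markers *pyrG89* and *pyroA4*, the deletion Δ*atfA*::*AfupyrG*+ and the construct *atfA*-3XFLAG::*pyroA*+. In that strain the *atfA* deletion was complemented with a vector carrying a FLAG-tagged copy, driven by the promoter of *atfA* itself and ended by the *trpC* terminator. The tag was precipitated with the anti-FLAG M2 antibody. The untreated groups carry the same deletion and tagged copy, and no input or untagged library was used here. The study calls the 2 libraries of a condition biological replicates, and whether they came from separate cultures is not given in the sources used here.

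AtfA is a basic leucine zipper factor related to Atf1 of the fission yeast *Schizosaccharomyces pombe*, and factors of this family bind the cyclic AMP response element (CRE). Light is sensed in *A. nidulans* by a phytochrome, by white collar proteins and by a cryptochrome, and it shifts the fungus toward asexual sporulation. The phytochrome FphA signals through the phosphotransmitter YpdA to the stress kinase SakA, which acts on AtfA. Genes induced by light include conidial proteins and enzymes that repair DNA damaged by ultraviolet light.

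MSB Tr. (3 d) lists held 453 and 439 peaks, those of Untr. (3 d) had 473 and 451, and those of Untr. (2 d) had 473 and 434. Each peak has a score on a scale of its own list, so it is given as a percentile of that list, where 100 stands for the top peak. The top score was 4.47 and 2.75 times the lowest in the MSB Tr. (3 d) lists, 9.87 and 6.85 times in Untr. (3 d), with 10.9 and 9.68 times in Untr. (2 d). Read counts are not part of these lists and the depth is unknown. A missing peak says only that no peak was called there.

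*nopA*, which encodes a fungal opsin, a membrane protein of the rhodopsin type, had a peak in all 6 libraries. Peaks in all 6 libraries were found at 250 of the 707 regions (35.4%). The region lies on chromosome VI from 962681 to 963380, a span of 700 bp in the coordinates of the peak lists, and contains the start of *nopA* on the forward strand as placed from the distances that the study lists. The score percentiles at *nopA* were 99.3 and 98.9 in MSB Tr. (3 d), 96.3 and 97.0 in Untr. (3 d), with 93.1 and 98.5 in Untr. (2 d). Both MSB Tr. (3 d) values lay above all 4 untreated values, and the widest gap between replicates was that of Untr. (2 d), 5.37 percentile points. In each list the *nopA* peak was near the top, at rank 4 and 6 in MSB Tr. (3 d), 18 and 14 in Untr. (3 d), with 33 and 7 in Untr. (2 d). Its mean percentile of 97.2 ± 2.30 (SD, n = 6) was the 8th highest of the 250 regions held by all libraries. Percentiles end at 100, so a region this near the top has little room to vary.

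At *nopA* the mean percentile was 99.1 ± 0.337 in MSB Tr. (3 d) (SD, n = 2), against 96.2 ± 2.26 in the untreated libraries (SD, n = 4). The difference was 2.86 percentile points. It is given as a description with no test, as are the other differences at *nopA*, since the same values served to choose the gene. It was 1.83 points without Untr. (2 d) replicate 1. Percentiles of both MSB Tr. (3 d) libraries lay above all untreated ones at 27 of the 250 regions (10.8%) and below all of them at 20 (8%), so *nopA* is 1 of 27. The direction depended on the scale. As log2 of the score over the list median, the MSB Tr. (3 d) libraries were lower by 0.31 on average. The range of scores was narrower in the MSB Tr. (3 d) lists, and its part in this was not tested. Over the lowest score of its list, the *nopA* score was 4.04 and 2.64 times in MSB Tr. (3 d), 4.06 and 3.97 times in Untr. (3 d), with 4.51 and 5.32 times in Untr. (2 d). These ratios overlap between treated and untreated libraries, and the lowest of them is that of MSB Tr. (3 d) replicate 2. Between the 3 d conditions the difference was 2.45 points, and between Untr. (3 d) and Untr. (2 d) it was 0.84 points.

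The *nopA* peak was broad in all libraries. Its widths were 660 and 600 bp in MSB Tr. (3 d), 620 and 540 bp in Untr. (3 d), and 580 and 540 bp in Untr. (2 d). The treated and untreated widths overlap, while both treated widths were above all untreated ones at 12.4% of the 250 regions and below all of them at 1.2%. The mean of 590 bp was 52nd of the 250 regions, where the median was 448 bp. Widths averaged 630 ± 42.4 bp in MSB Tr. (3 d) (SD, n = 2) and 570 ± 38.3 bp in the untreated libraries (SD, n = 4), a difference of 60 bp. It was 30 bp without MSB Tr. (3 d) replicate 1 and 90 bp without MSB Tr. (3 d) replicate 2, so its size depends on which treated library is kept. The median width of all peaks in a list was 400 and 360 bp in MSB Tr. (3 d), 340 bp in each Untr. (3 d) list, and 300 and 340 bp in Untr. (2 d). As a percentile of its list, the *nopA* width differed by -2.12 points, MSB Tr. (3 d) minus untreated, so the sign of the width difference turned as well.

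The summit, the base with the highest signal, stood at almost the same place of the *nopA* promoter in every library. It lay 148 bp upstream of the gene start in both MSB Tr. (3 d) libraries, 168 and 148 bp upstream in Untr. (3 d), and 138 and 168 bp upstream in Untr. (2 d). The 6 summits span 30 bp, and 43 of the 250 regions (17.2%) had a span as small or smaller, with a median of 70 bp. Summits are given in steps of 10 bp, so the span is 3 steps. The difference between MSB Tr. (3 d) and untreated libraries was 7.5 bp, less than 1 step, and it ran from 3.33 to 13.3 bp when 1 library was left out. The 1 CRE-type motif that the study places in this promoter lay 11 bp from both MSB Tr. (3 d) summits, 9 and 11 bp from those of Untr. (3 d), and 21 and 9 bp from those of Untr. (2 d).

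**Figure D1:**
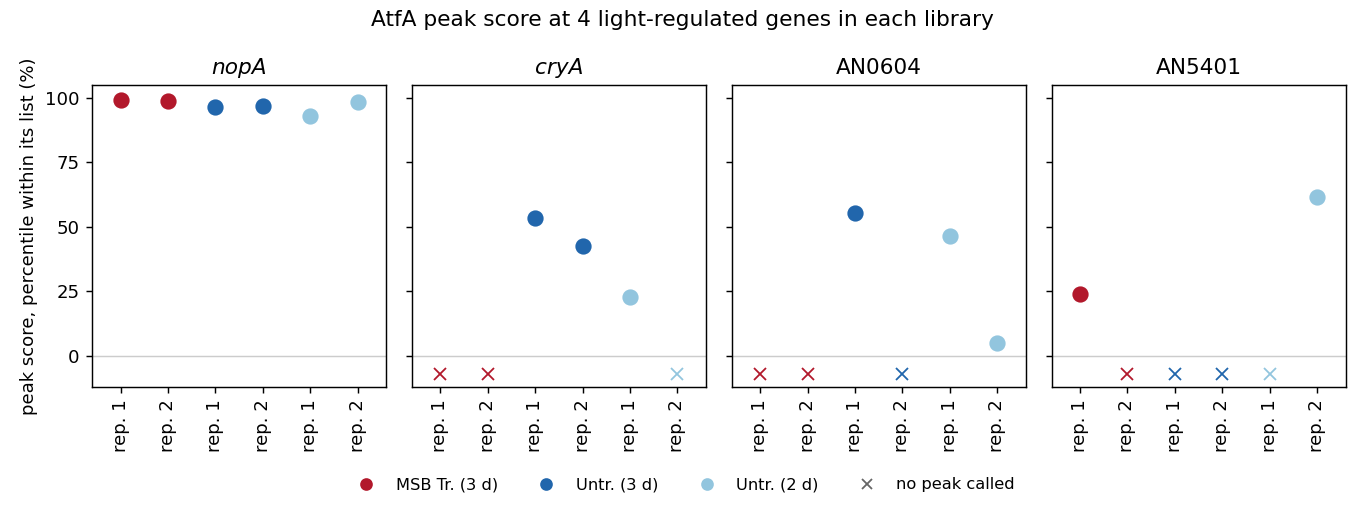
Score percentile of the AtfA peak at each of the 4 genes (y axis, percent of the list at or below that score) in each library (x axis, 2 replicates per condition, coloured by condition), with a cross where no peak was called. *nopA* is at 93.1 or above in all 6 libraries, *cryA* and AN0604 have crosses in both MSB Tr. (3 d) libraries, and AN5401 has 4 crosses.

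*cryA* codes for a cryptochrome of the photolyase family, which in *A. nidulans* senses blue and ultraviolet A light and holds back sexual development. Its region lies on chromosome VIII from 3714321 to 3714620, a span of 300 bp. No peak was called there in either MSB Tr. (3 d) library. Peaks were called in both Untr. (3 d) libraries, with percentiles of 53.4 and 42.7, and in replicate 1 of Untr. (2 d), with a percentile of 22.9. Replicate 2 of Untr. (2 d) had no peak, so the 2 replicates of that condition differ in presence.

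The *cryA* peaks were narrow. They were 280 and 240 bp wide in Untr. (3 d) and 200 bp in replicate 1 of Untr. (2 d), where 200 bp is the smallest width in any list. Their scores were 1.97, 1.74 and 1.63 times the lowest score of their lists in the same order. The mean percentile of 39.7 ± 15.4 (SD, n = 3) was the 6th highest of the 63 regions with a peak in exactly 3 libraries (8.91% of all regions). The median percentile of all peaks in such regions was 22.3, against 70.8 for peaks in regions held by all 6 libraries. Both Untr. (3 d) peaks at *cryA* were above 22.3, while the Untr. (2 d) peak, at 22.9, was close to it.

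The *cryA* region is shared by a pair of genes that point away from each other. The start of *cryA* on the reverse strand and that of AN0386 on the forward strand are 118 bp apart. From the *cryA* start the summits were 74 and 134 bp upstream in Untr. (3 d) and 94 bp upstream in replicate 1 of Untr. (2 d). From the AN0386 start they were 44 bp upstream, 16 bp on the gene side and 24 bp upstream in the same order. All 3 summits thus lie between the 2 starts or within 16 bp of that interval, and the peak lists do not tell which gene they belong to. The study places 2 CRE-type motifs at *cryA*. The motif nearest each summit lay 2 and 57 bp from the Untr. (3 d) summits and 17 bp from the Untr. (2 d) summit. These distances cannot all be to the same motif.

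AN0604 is listed as a homolog of *uve1*, which in *S. pombe* encodes an endonuclease that cuts DNA at ultraviolet photoproducts. Its region lies on chromosome VIII from 3023961 to 3024280, a span of 320 bp. As at *cryA*, no peak was called in either MSB Tr. (3 d) library. The percentile was 55.4 in replicate 1 of Untr. (3 d), with no peak in replicate 2, and it was 46.5 and 5.0 in Untr. (2 d). The Untr. (2 d) replicates differed by 41.6 points, and the replicates of Untr. (3 d) differed in presence. The score was 2.00 times the lowest of its list in replicate 1 of Untr. (3 d), and 2.11 and 1.17 times in Untr. (2 d).

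AN0604 peaks were 240 bp wide in replicate 1 of Untr. (3 d) and 320 bp in both Untr. (2 d) libraries. The gene start placed from the study's listed distances is on the reverse strand, and relative to it all summits fell on the gene side. They lay 44 bp inside in replicate 1 of Untr. (3 d), and 144 and 4 bp inside in Untr. (2 d). The span of 140 bp over 3 libraries compares with 30 bp over 6 libraries at *nopA*. Only 2 distances place this start, and 2 places between the neighbouring genes matched them. The other place was dropped because peaks of a condition with no listed distance lay there as well, a rule chosen after seeing the data. The study counts the peaks as upstream ones, so the side on which they lie is uncertain. AN0602 on the forward strand shares the region, with a start 241 bp away, and the summits lay 285 bp upstream of it in replicate 1 of Untr. (3 d), and 385 and 245 bp upstream in Untr. (2 d). No CRE-type motif is placed at AN0604 by the study.

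*cryA* and AN0604 share a pattern of presence, with peaks in 3 of the 4 untreated libraries and in neither MSB Tr. (3 d) library. That pattern was found at 17 of the 707 regions (2.4%), these 2 among them. Of the 104 regions with a peak in exactly 3 untreated libraries, 17 (16.3%) had none in MSB Tr. (3 d), 24 (23.1%) had 1 and 63 (60.6%) had both. The missing untreated library was not the same one, since it was replicate 2 of Untr. (2 d) at *cryA* and replicate 2 of Untr. (3 d) at AN0604. The genes were chosen with this pattern known, so no test of it was made. Among regions with a peak in at least 1 replicate, 1 replicate lacked it at 118 of 499 (23.6%) in MSB Tr. (3 d), at 190 of 543 (35%) in Untr. (3 d) and at 253 of 563 (44.9%) in Untr. (2 d).

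Regions next to both genes were called in the treated libraries. The nearest region to *cryA*, 9300 bp away on the low-coordinate side, had peaks in all 6 libraries, with percentiles of 42.4 and 40.4 in MSB Tr. (3 d), 29.2 and 60.8 in Untr. (3 d), with 56.2 and 22.7 in Untr. (2 d). Their range of 22.7 to 60.8 overlaps that of the *cryA* peaks, and treated and untreated values overlap. The nearest region to AN0604, 7920 bp away and tied to AN0600, had percentiles of 77.9 and 76.7 in MSB Tr. (3 d), 75.7 and 68.1 in Untr. (3 d), with 50.6 and 71.7 in Untr. (2 d). There, both treated libraries were above all untreated ones, as at 27 of the 250 regions held by all libraries (10.8%).

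**Figure D2:**
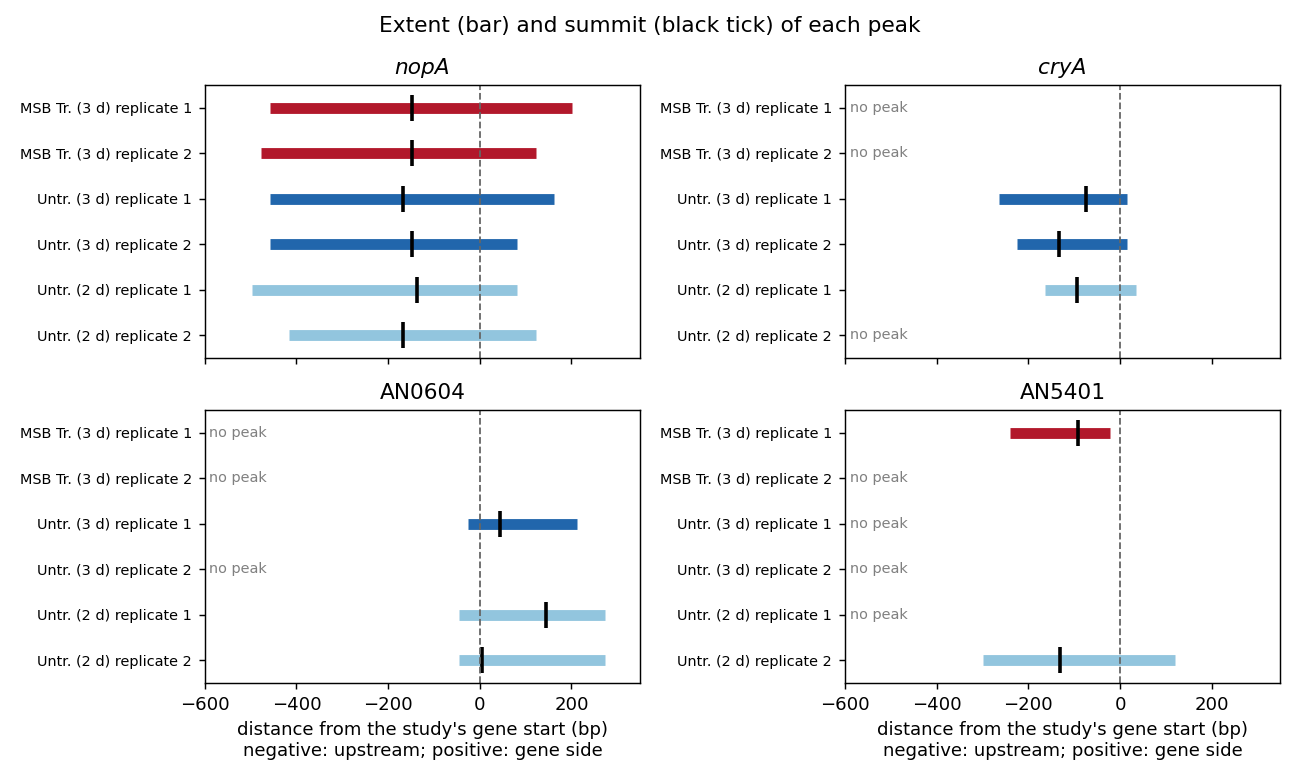
Extent (bar) and summit (black tick) of each peak in bp from the gene start placed from the study's listed distances (dashed line at 0, negative values upstream), 1 row per library with MSB Tr. (3 d) at the top, coloured by condition. The 6 *nopA* summits lie 138 to 168 bp upstream, the *cryA* and AN5401 summits lie upstream, and the AN0604 summits lie on the gene side of the start.

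AN5401 is a gene that is induced by red light, and the function of its product was not given in the sources used here. Its region lies on chromosome V from 2928861 to 2929280, a span of 420 bp. Peaks were called in replicate 1 of MSB Tr. (3 d), with a percentile of 23.8, and in replicate 2 of Untr. (2 d), with a percentile of 61.4. Neither Untr. (3 d) library had one. A peak in exactly 1 treated and 1 untreated library was found at 40 of the 707 regions (5.66%), so the lists do not place AN5401 in any condition by both replicates. The treated peak was 220 bp wide with a score of 1.55 times the lowest of its list, and the untreated one was 420 bp wide with 2.20 times. The median percentile of peaks in regions with exactly 2 libraries was 19.2, and the mean of 42.6 at AN5401 was the 5th highest of those 87 regions (12.3% of all regions).

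Where AN5401 peaks were called, their summits were upstream of the gene start, which was placed from 2 distances only. They lay 91 bp upstream in MSB Tr. (3 d) replicate 1 and 131 bp upstream in Untr. (2 d) replicate 2. Of 2 CRE-type motifs that the study places there, the one nearest each summit was 11 bp from the MSB Tr. (3 d) summit and 28 bp from the Untr. (2 d) summit. These distances cannot both be to the same motif. The nearest region, 9920 bp away and tied to AN5404, was itself called in 4 libraries only, with percentiles of 40.0 in MSB Tr. (3 d) replicate 1, 20.0 in Untr. (3 d) replicate 1, and 9.41 and 72.9 in Untr. (2 d).

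By presence the order of the 4 genes was *nopA* with 6 libraries, *cryA* and AN0604 with 3 each, and AN5401 with 2. *nopA* percentiles did not overlap those of any other member, since its lowest was 93.1 and the highest elsewhere was 61.4 at AN5401. The mean percentiles of 39.7 at *cryA*, 35.6 at AN0604 and 42.6 at AN5401 rest on different libraries, and their ranges of 22.9 to 53.4, 5.0 to 55.4 and 23.8 to 61.4 overlap. Only Untr. (3 d) replicate 1 and Untr. (2 d) replicate 1 hold peaks at *nopA*, *cryA* and AN0604 together, and MSB Tr. (3 d) replicate 2 holds the *nopA* peak alone.

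The regions most like each member were those held by the same libraries with the smallest mean absolute difference of percentile. For *nopA*, compared with 249 other regions held by 6 libraries, they were the region shared by *catA*, a catalase of conidia, and *cetJ*, a transcript enriched in conidia (1.34 points), the region of AN3783 (1.53 points) and that of *ccgA*, a light-inducible gene (1.71 points). Only 4 other regions were held by the same 3 libraries as *cryA*, and the nearest, on chromosome VI without a tied gene, differed by 5.69 points. For AN0604 the nearest of 4 was the region of AN5771, with 16.9 points. For AN5401 the nearest of 7 was a region without a tied gene, with 8.47 points.

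Another 16 genes tied to light were taken from the study. It lists or names 15 of them as light-responsive or putative clock genes with bound promoters, chosen on these libraries, so their counts are no independent evidence. *ypdA*, whose product interacts with the phytochrome, was added here as the last. All 16 are listed with peaks, and 15 could be tied to 14 regions, since *conF* and AN8641 share 1 and *silG* was not tied. Of the 14 regions, 12 (85.7%) had a peak in all 6 libraries, against 35.4% of all regions, and all 14 had peaks in both MSB Tr. (3 d) libraries, against 53.9% of all regions. A gene with few listed distances is harder to tie, and the full set of regions passed no such step. The 4 genes described here, which the study also ties to light, were left out of the 14 regions. The shares and medians given here are thus not like for like. *cryA* and AN0604 lack a peak in those libraries, and AN5401 has 1 in a single one. The exceptions among the 14 were *veA*, a regulator of development in light and dark, with 3 libraries and a mean percentile of 21.9, and AN5764, with 4 libraries and 46.4. The median of the mean percentiles was 77.8 over the 14 regions, against 34.5 over all regions. Of the 14, 4 stood above *nopA*, namely the region of *conF* and AN8641 (99.6), *conJ* (99.2), *ccgA* (98.9) and *cetJ* (97.7). *ypdA* had a mean of 63.9 over 6 libraries, and without it 11 of 13 regions (84.6%) were held by all 6 and the median was 87.1. None of the 3 other genes of the light-sensing system examined, the phytochrome gene *fphA* and the white collar genes *lreA* and *lreB*, is in the curated list of 502 genes or in the fuller sheet from which it was made.

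**Figure D3:**
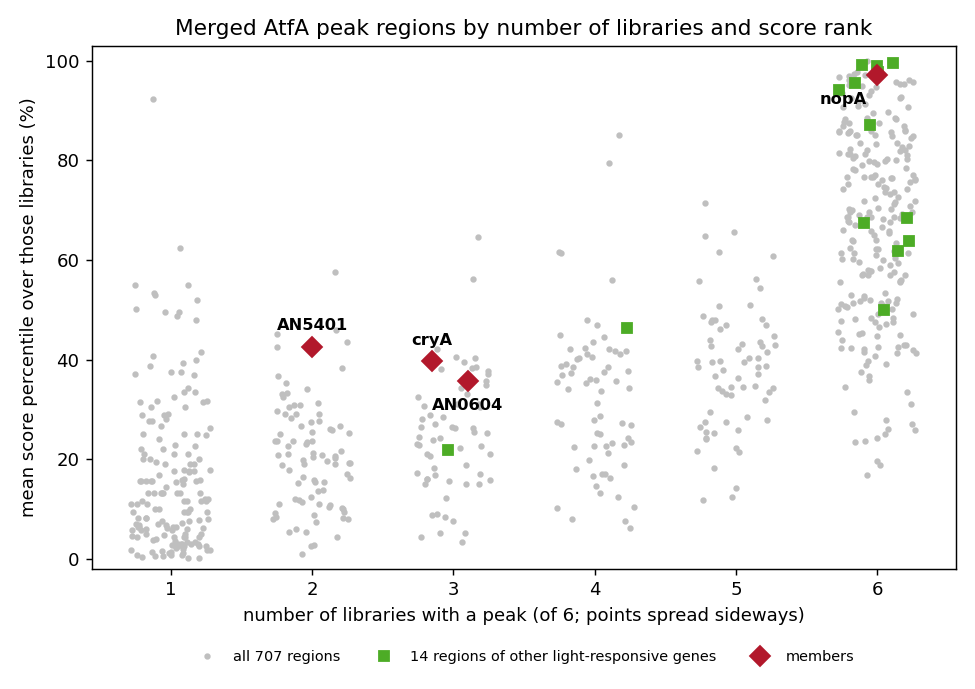
Mean score percentile (y axis) of each of the 707 merged regions over the libraries that hold it, by the number of libraries with a peak (x axis, points spread sideways), with the 14 regions of other light-responsive genes as green squares and the 4 genes as red diamonds. *nopA* sits at 97.2 among the regions held by all 6 libraries, and AN5401, *cryA* and AN0604 sit at 42.6, 39.7 and 35.6 in the upper part of the regions held by 2 or 3.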

How the data were processed

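Per the labels and the study's methods, conidial chromatin was sequenced as single 75 bp reads. The authors mapped them with Bowtie2 to the *A. nidulans* reference of JGI MycoCosm, dropped PCR duplicates (Picard), scaled coverage to RPKM (deepTools) and ran MACS2 on every library by itself. The peak score, as deposited by the authors, is a whole number on a scale that differs between lists, so it was compared as a rank within its list and, for some values, as a ratio to the median or lowest score of the same list. Starts and ends lie on a grid of 20 bp and summits on steps of 10 bp.

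Peaks of the 6 lists with 1 bp or more in common were merged (Python 3.11.15, pandas 2.3.3, numpy 2.4.6). Differences between MSB Tr. (3 d) and the 4 untreated libraries were computed for *nopA*, which alone of the 4 genes has a peak in every library. The exact permutation test planned for them is not used, since these values chose the gene and 0.0667 is the smallest p that 2 against 4 libraries can give. Gene starts came from matching the distances of peak centres that the study lists for 502 genes to the peak lists. Places between neighbouring genes were kept, with a slack of 3000 bp. Places with a peak centre of a condition without a listed distance within 100 bp of the listed centres were then dropped, and a start was accepted where 1 place was left. Of 218 neighbouring pairs among 226 genes with at least 5 listed distances, 0 were out of the order of a RefSeq gene table of another assembly. That table also set the chromosome searched and the order that defined the neighbours. None of its positions was used as a gene start. The 4 genes, each named, the gene lists, the neighbours and the rule for like regions were chosen with earlier results of these data known. Alternatives were other overlap rules, ranks and references, a replicate block, and leaving out the lowest 25% of scores or each library. Merging, library counts, the permutation functions and the matching of distances were run on simulated data, the last for regions with at least 5 peaks only. The rules for neighbours, dropped places and like regions were not simulated. No genome sequence was used, and motif positions are the study's.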

Additional observations from a re-analysis of the deposited data

How the results depend on the processing

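At *nopA* the difference of 2.86 percentile points between MSB Tr. (3 d) and untreated libraries turned to -0.31 as log2 of the score over the list median and to -2.12 points when peaks were ranked by width. The width difference of 60 bp turned to -2.12 points as a percentile of the list. Without each library in turn the percentile difference was 1.83 to 3.62 points, lowest without Untr. (2 d) replicate 1, the width difference 30 to 90 bp and the summit difference 3.33 to 13.3 bp. Deviations of replicate 1 over the 250 regions correlated at 0.24 between MSB Tr. (3 d) and Untr. (3 d). They correlated at -0.40 between MSB Tr. (3 d) and Untr. (2 d) and at -0.29 between the untreated conditions. Replicate 1 of Untr. (2 d) thus varied against replicate 1 of both 3 d conditions, so the replicate numbers do not match libraries across all conditions. Whether libraries of different conditions belong together in another way was not tested. The replicate block, which used the replicate numbers as given, returned the same differences of 2.86 points, 60 bp and 7.5 bp by construction. Each block held 1 treated and 2 untreated libraries, so these values say nothing about pairing. AN5401 kept 1 library when the lowest-scored 25% of each list was left out, where its MSB Tr. (3 d) peak is lost, and 1 to 2 when a library was left out, with 1 without MSB Tr. (3 d) replicate 1 or Untr. (2 d) replicate 2. *cryA* and AN0604 each kept 2 libraries without the lowest-scored 25%, and *nopA* kept 6. In all, 78 of 84 values were taken as the same, meaning the same sign for a difference and only a limited change for a count. Part of the 78 was fixed in advance, so the tally is no measure of stability. Asking for the summit inside the interval could not change a count, since each interval spans its own peaks. At *nopA*, leaving out a library had to lower the count by 1. Choosing the lowest-scored peak there changed nothing, with 1 peak per library, and the blocked differences were fixed as well. The drops to 2 libraries at *cryA* and AN0604 are among the 78. Against 707 regions with 250 held by all 6 libraries, there were 698 and 250 when peaks within 100 bp were merged, 789 and 235 when overlap had to cover at least 50% of both peaks, and 523 and 207 without the lowest-scored 25%. The main limits are 2 libraries per condition, scores on a scale of each list, an unknown read depth and gene starts rebuilt from listed distances, 2 of them at AN0604 and 2 at AN5401.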
